A study of Mus musculus with 4 samples.

Results

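Immediate early genes of the AP-1 and EGR families were examined in embryoid bodies (EBs), free-floating clusters of early differentiating cells, grown from mouse embryonic stem cells of the R1 line. The set was given as 10 genes, Fos, Fosb, Fosl1, Jun, Junb, Jund, Egr1, Ier2, Ier3 and Atf3, and a gene was measured through the probe sets whose annotation lists it alone, the brightest on average where there were several. By this rule 9 of the 10 were measured, of 22180 genes in all. Fosl1 has no probe set of its own, since the probe set that lists it also lists Ccdc85b. Feeder-depleted cells were kept without LIF, the cytokine that holds them undifferentiated, for 18 h, and the treatments were plain EB medium, DMSO, GSK-J5 and GSK-J4, both compounds at 1.88 µM. GSK-J4 is labelled as an inhibitor specific for the KDM6 histone demethylases, and GSK-J5, labelled as a vehicle compound, served as its control at the same dose. All aggregates were dissociated with trypsin for 3 min before RNA was extracted, and each treatment has 1 array, 4 in all. The series asks whether KDM6 inhibition elicits a DNA damage response in differentiating stem cells.

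Immediate early genes are transcribed within minutes of a growth factor signal or a stress, without new protein synthesis, and their transcripts are short-lived. Fos and Jun proteins pair through leucine zippers to form AP-1, which binds regulatory DNA as a dimer, and the kinase cascades of ERK, JNK and p38 act on the factors that start their transcription, among them the serum response factor SRF and its ternary complex partners, CREB and ATF proteins. EGR1 is a zinc finger transcription factor under the same serum response control, and ATF3 is a relative of the Fos proteins that is widely induced by stress, including the pathways of ATF4 and p53. In pluripotent cells FGF signalling through ERK maintains Egr1 transcription.

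Atf3 and Fos were higher in GSK-J4 than in the medium, DMSO and GSK-J5 arrays by at least 1.5-fold, and no member was lower by that size. Jun lay above the 3 controls by less, Egr1 lay below them, and Fosb, Junb, Jund, Ier2 and Ier3 lay within 0.07 of the control range on the log2 scale. The margin is how far GSK-J4 lies outside the range of the 3 controls, and is 0 where it lies inside. A gene was called when its margin reached 1.5-fold, 0.585 on the log2 scale, and its mean over the 4 arrays reached the filter level of 6.59, the 40th percentile of all measured genes. All 9 measured members passed this filter. With 1 array per treatment there is no replicate check of any difference, so the values below carry no p-value or interval, and the spread of the 3 control arrays, which were treated differently, stands in as a yardstick. By this rule 2 of 9 members were called higher, beside 2.21% of the 13308 genes that passed, and 0 of 9 lower, beside 0.842%. The members and the gene lists below were chosen with earlier results of these data known. Counts set beside these shares are therefore a description and not a test.

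The stretches upstream of Fos, Jun and Atf3 are shown because these genes had the largest upward margins and hold short elements known from their regulation. Each run has 250 bases, ends at the base before the gene start in RefSeq (GRCm38.p6) and reads 5′ to 3′ on the gene's strand. Capitals mark the matches described below.
Fos (chr12:85473640-85473889, plus strand): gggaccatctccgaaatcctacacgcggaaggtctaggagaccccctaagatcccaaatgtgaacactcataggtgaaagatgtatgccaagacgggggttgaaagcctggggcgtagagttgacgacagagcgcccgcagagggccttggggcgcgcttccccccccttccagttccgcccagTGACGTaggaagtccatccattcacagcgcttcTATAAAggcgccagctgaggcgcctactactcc
Jun (chr4:95052223-95052472, minus strand): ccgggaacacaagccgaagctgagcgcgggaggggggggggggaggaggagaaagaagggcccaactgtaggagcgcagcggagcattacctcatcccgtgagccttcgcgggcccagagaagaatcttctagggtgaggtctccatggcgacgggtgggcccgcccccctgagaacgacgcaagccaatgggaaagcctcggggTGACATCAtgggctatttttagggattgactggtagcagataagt
Atf3 (chr1:191183334-191183583, minus strand): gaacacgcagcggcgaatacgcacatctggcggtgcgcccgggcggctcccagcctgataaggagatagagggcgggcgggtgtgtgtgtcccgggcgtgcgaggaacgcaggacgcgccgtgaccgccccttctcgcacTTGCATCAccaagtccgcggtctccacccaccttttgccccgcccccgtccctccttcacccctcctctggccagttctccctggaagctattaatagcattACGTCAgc

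The RefSeq table held promoters for 7 of the 9 measured members, Fos, Fosb, Jun, Junb, Jund, Ier3 and Atf3, and the 250 bases before each start were searched on both strands. The 6-letter core TGACGT of the cyclic AMP response element (CRE), chosen after the sequences were seen, occurred in Fos, 66 to 61 bases before the start, and in Atf3, on the opposite strand 8 to 3 bases before it. It occurred in 6.47% of the 32851 promoters of the table. The complete element TGACGTCA, which contains that core, was found in 0 of the 7, against 1.55% of all promoters. The CRE-like site TGACATCA, which ATF2 and JUN dimers are known to bind in the Jun promoter, lay 45 to 38 bases before the Jun start and in 2.93% of all promoters. The C/EBP-ATF element, searched as TGATGNAA, lay on the opposite strand of Atf3, 110 to 103 bases before the start, where it reads TTGCATCA, and in 3.45% of all promoters. The letters TATAAA lay 33 to 28 bases before the Fos start (12.4% of all promoters), and the EGR site GCGGGGGCG lay 50 to 42 bases before the Fosb start (2.57%). The AP-1 site TGACTCA (4.46%) and the CArG box, the site of SRF (1.47%), were found in 0 of the 7 in this window. These matches describe the letters only.

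**Figure D1:**
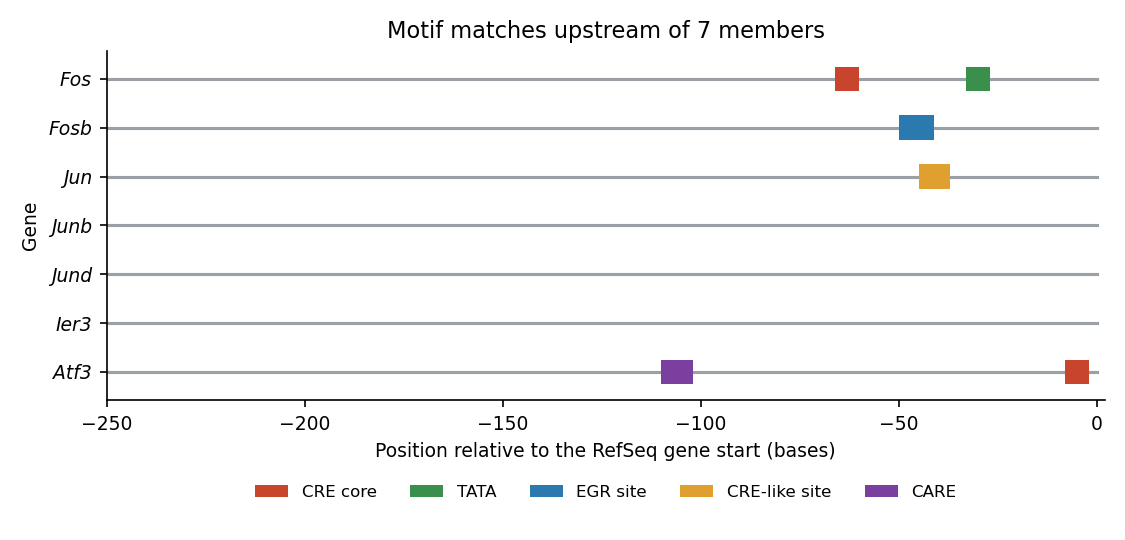
Matches of the searched motifs in the 250 bases before the RefSeq start of 7 members, with position in bases on the horizontal axis and 1 line per gene. The CRE core appears in Fos and Atf3, and no searched motif appears in Junb, Jund or Ier3.

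Among the Fos family, Fos encodes the inducible AP-1 subunit for which the family is named. Its probe set read 6.65 in medium, 6.98 in DMSO, 6.94 in GSK-J5 and 7.65 in GSK-J4, on the log2 scale. The medium array was the lowest of the controls, by 0.33 below DMSO, and GSK-J4 lay above all of them. The margin was 0.67, or 1.59-fold over DMSO, and the difference was 1.64-fold over GSK-J5 and 2.0-fold over medium. This margin exceeded the control range of 0.33. The medium value lay just over the filter level, and no detection calls were examined, so the fold is less certain than for brighter genes. Of the 13308 genes, 1.56% had a higher margin. Fosb, a paralogue with the same dimerisation domain, read 6.87 in medium, 6.87 in DMSO, 7.02 in GSK-J5 and 7.09 in GSK-J4. Its margin of 0.07 was smaller than the control range of 0.15.

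For Fosl1, which encodes FRA-1, no value can be assigned. The probe set listed for Ccdc85b and Fosl1 together read 7.01 in medium, 6.99 in DMSO, 6.78 in GSK-J5 and 8.57 in GSK-J4. It lay above all controls by 1.56, which is 2.95-fold, and its 3 controls spanned 6.78 to 7.01. Which of the 2 genes gave this signal cannot be told apart, and the probe set enters no count here.

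The Jun family encodes the partners of the Fos proteins, which can also pair among themselves. Jun read 8.79 in medium, 8.88 in DMSO, 8.88 in GSK-J5 and 9.35 in GSK-J4. The 3 controls spanned 0.09, and GSK-J4 stood apart from them by 0.47, or 1.39-fold, which did not reach the 1.5-fold rule. Of the genes tested, 3.64% had a higher margin. Junb, often a restrained activator that opposes Jun in growth control, read 9.06, 8.97, 9.18 and 9.15 in medium, DMSO, GSK-J5 and GSK-J4, so GSK-J4 lay within the controls. Jund, the most constitutively expressed of the family, read 11.12, 11.08, 11.26 and 11.31 in the same order. Its margin of 0.05 was smaller than the control range of 0.18, and a second, dimmer probe set of Jund read 9.18, 8.95, 9.17 and 9.29, with a margin of 0.11. Of the AP-1 subunit genes, Fos and Jun were separated from the controls by more than the controls' own range, and Fosb, Junb and Jund were not.

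Atf3 had the largest margin of the measured members. It read 7.67 in medium, 7.47 in DMSO, 7.52 in GSK-J5 and 9.0 in GSK-J4. The controls lay within 0.20 of each other and GSK-J4 lay 1.33 above the highest of them, 2.51-fold over medium, 2.79-fold over GSK-J5 and 2.89-fold over DMSO. Its margin ranked 22 of the 13308 genes from the top.

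Egr1 was the only member below all 3 controls. It read 9.20 in medium, 8.99 in DMSO, 9.16 in GSK-J5 and 8.73 in GSK-J4. The margin of -0.26 was a little larger than the control range of 0.21 and short of the 1.5-fold rule. Against GSK-J5 the difference was -0.43 and against medium -0.47. Ier2, a nuclear protein gene of the immediate early class, read 9.45, 9.34, 9.51 and 9.57 in medium, DMSO, GSK-J5 and GSK-J4, and its margin of 0.06 was smaller than the control range of 0.17. Ier3, which encodes a regulator of cell survival also known as IEX-1, read 8.70, 8.52, 8.64 and 8.58, within the controls.

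**Figure D2:**
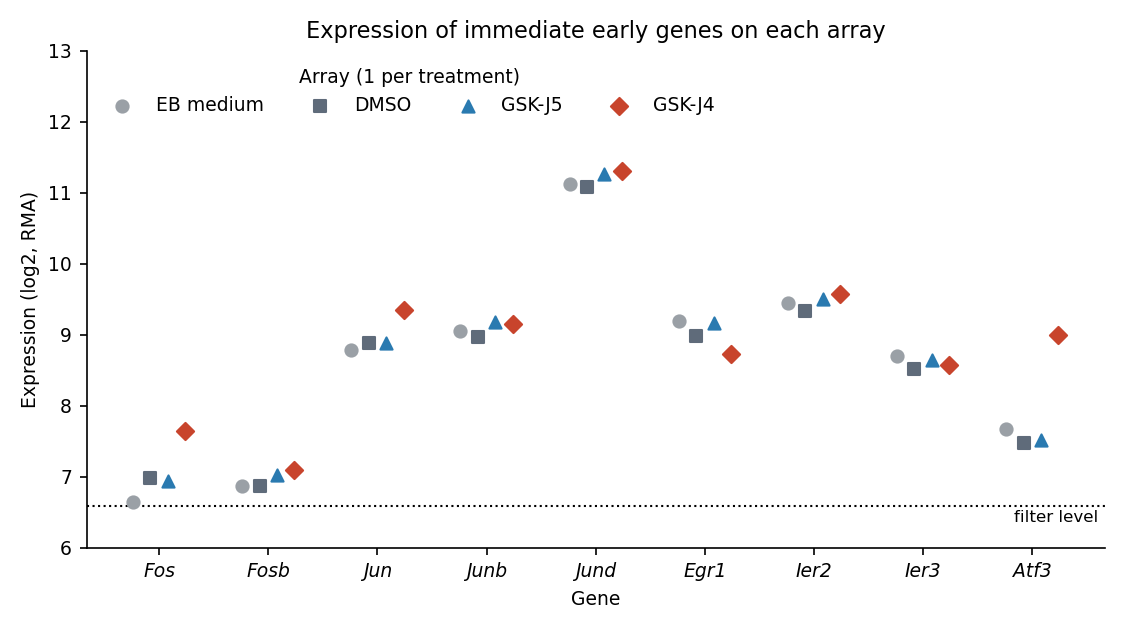
Expression of the 9 measured members (log2 RMA values, vertical axis) on the 4 arrays, 1 point per array, with the filter level dotted. In Atf3, Fos and Jun the GSK-J4 point stands above the controls, at 9.0, 7.65 and 9.35, and in Egr1 it lies below them at 8.73; heights of different genes come from different probe sets and are not comparable.

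By position alone, 6 of 9 members lay above all 3 controls by some amount (Fos, Fosb, Jun, Jund, Ier2 and Atf3), beside 38% of all genes tested, and 1 lay below (Egr1), beside 35.5%. For Fosb, Jund and Ier2 the distance was 0.05 to 0.07, less than the spread of their controls, and after repeated quantile normalization Ier2 no longer lay above and 5 members remained so; under that scaling 31.9% of all genes lay above and 42% below. Ier3 lay below the controls, by at most 0.03, under that scaling and under loess. Atf3, Fos, Jun, Fosb and Jund stayed above, and Egr1 below, under every scaling tried.

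**Figure D3:**
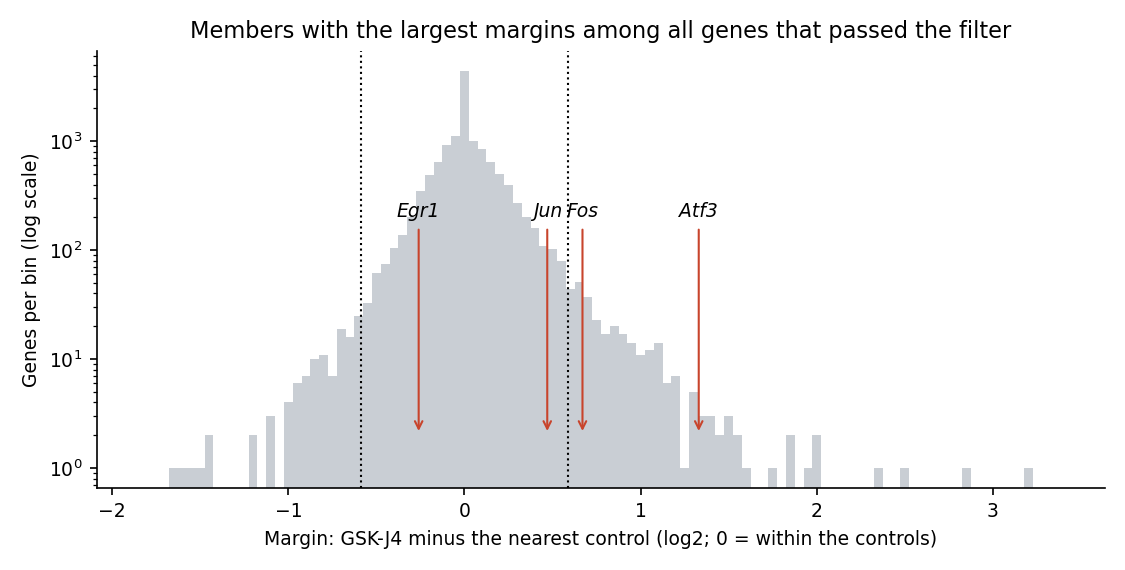
Distribution of the margin over the 13308 genes that passed the filter (log2, horizontal axis; genes per bin on a log scale, vertical axis), with arrows at Egr1, Jun, Fos and Atf3 and dotted lines at the 1.5-fold rule. Atf3 (1.33) and Fos (0.67) lie beyond the upper line, while Jun (0.47) and Egr1 (-0.26) lie between the lines.

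Compared directly at the same dose and time, GSK-J4 exceeded GSK-J5 by 1.5-fold in 2 of 9 members, Atf3 (1.48) and Fos (0.71), beside 3.28% of all genes tested. It was lower by that size in 0 of 9, beside 1.39%. The median difference over the 9 members was 0.06, with a range of -0.43 to 1.48, and the median over the 13308 genes was 0.00. Against DMSO the same 2 genes were called, beside 3.89% of all genes (1.57% were lower, with 0 members), and the member median was 0.23 (all genes 0.01). Against medium they were called as well, beside 2.96% (1.68% lower, with 0 members), with a member median of 0.19 (all genes 0.00). These comparisons share the GSK-J4 array, so they are not independent of each other.

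The control arrays differed among themselves by small amounts in these genes. Between GSK-J5 and DMSO no member reached 1.5-fold, beside 0.0526% of all genes higher and 0.12% lower, but the member median was 0.15 against 0.01 for all genes. GSK-J5 was higher in 7 members, by 0.21 at most, equal in Jun and lower by 0.04 in Fos. The DMSO array was the lowest of the 4 in 5 of 9 members (Junb, Jund, Ier2, Ier3 and Atf3), beside 26.7% of all genes tested. The reference therefore mattered for the small differences: Junb, Jund, Ier2 and Fosb lay 0.18 to 0.23 above DMSO in GSK-J4 and -0.03 to 0.07 from GSK-J5. DMSO minus medium had a member median of -0.09, with Fos the highest at 0.33 and Egr1 the lowest at -0.21.

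**Figure D4:**
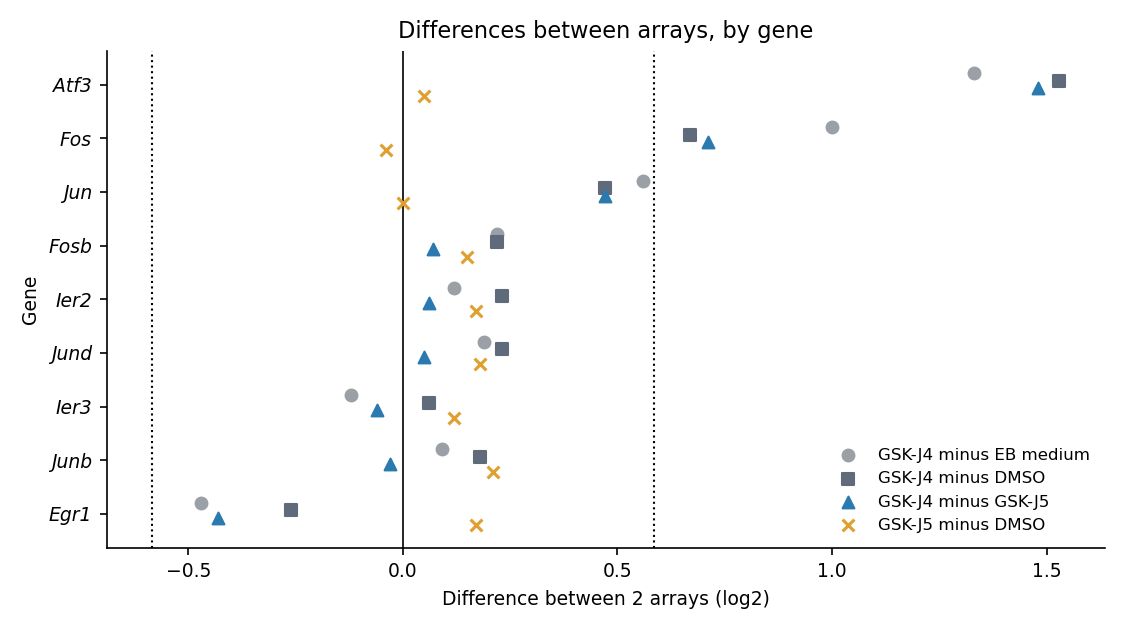
Differences between pairs of arrays for each measured member (log2, horizontal axis; 1 row per gene ordered by margin, 1 symbol per pair), with dotted lines at the 1.5-fold rule. All 3 GSK-J4 differences of Atf3 and of Fos lie beyond the rule, and the GSK-J5 minus DMSO differences of the 9 genes lie between -0.04 and 0.21.

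Other genes that encode AP-1 and related leucine zipper proteins included several that were higher in GSK-J4. Of 13 measured, 12 passed the filter. Of these 3 were called higher and 0 lower, beside 2.21% and 0.842% of all genes tested. By position 7 lay above all controls by some amount and 3 below, beside 38% and 35.5%. Ddit3, which encodes the stress factor CHOP, read 7.88, 7.5, 8.20 and 9.96 in medium, DMSO, GSK-J5 and GSK-J4, a margin of 1.76. Jdp2, whose product pairs with JUN and represses AP-1 sites, read 7.26, 7.13, 7.49 and 8.95, a margin of 1.46. Atf5, an ATF4-related stress factor, had a margin of 0.97. Named after their values were seen, Fosl2, the fourth Fos family gene, lay within the controls at 7.48, Atf4 read 9.91 against 9.28 to 9.35 and Atf7 10.16 against 9.51 to 9.68. Maff (7.03 against 7.17 to 7.44), Batf (6.79 against 6.92 to 7.02) and Batf3 (6.46 against 6.70 to 6.84), named likewise, lay below the controls. The median over the measured genes of the list was 0.20 against GSK-J5, beside -0.02 over all 22180 measured genes.

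Of 17 other immediate early transcription regulators measured, 15 passed the filter. Of these 0 were called higher, beside 2.21% of all genes, and 1 lower, beside 0.842%. By position 9 of the 15 lay below all controls and 4 above, beside 35.5% and 38% of all genes. Myc, the growth regulator, was the called gene, at 9.75 in GSK-J4 against 10.45 to 10.56. The median difference from GSK-J5 was -0.16. Named after their values were seen, the other EGR genes and their corepressors were placed like Egr1 or within the controls. Egr2 read 6.47 in GSK-J4 against 6.63 to 6.78, Egr3 6.92 against 7.03 to 7.42 and Egr4, within the controls, 6.56 against 6.50 to 6.78, all close to the filter level. Nab2, a corepressor of EGR proteins that EGR1 itself induces, read 8.78 in GSK-J4 while the controls spanned 9.35 to 9.60, a distance of 1.48-fold, and Nab1 read 7.48 against 7.66 to 7.83.

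Immediate early effectors and feedback genes were mixed. Of 26 measured, 25 passed. Of these 2 were called higher and 1 lower, beside 2.21% and 0.842% of all genes tested. By position 11 lay above and 11 below all controls, beside 38% and 35.5%. The called genes were Plk2, a polo-like kinase (10.40 against 8.44 to 8.56), and Btg2, an antiproliferative gene (10.48 against 8.77 to 8.92), both known p53 targets, and Sgk1, a kinase of the serum and glucocorticoid response (10.62 against 11.28 to 11.36). Named after its values were seen, Ptgs2, which encodes cyclooxygenase-2, read 7.46 against 6.18 to 6.25; its controls lay under the filter level and it was too dim to be counted. Dusp1, the phosphatase that ends MAP kinase signals and is usually induced together with Fos, read 11.28 against 11.10 to 11.16, a margin of only 0.12. Trib1 (7.98 against 8.53 to 8.73) and Ccn2 (9.12 against 9.64 to 9.80) lay below the controls. These 3 genes were also named after their values were seen.

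Transcripts of the upstream kinases and of the SRF, ternary complex and CREB factors differed little. Of 23 measured, all passed, and 0 were called higher and 1 lower, beside 2.21% and 0.842% of all genes tested. By position 8 lay above all controls by some amount and 6 below, beside 38% and 35.5%. The median against GSK-J5 was 0.02. Map2k6, a kinase that activates p38, read 7.22 against 7.84 to 7.94. Srf, named after its values were seen, read 10.05 while the controls spanned 10.44 to 10.56, a distance of 1.31-fold. Crtc1, a coactivator of CREB, read 9.93 against 9.33 to 9.53, and Elk1 (10.61) lay within the controls, both named likewise. The activity of these factors depends mostly on phosphorylation, which arrays do not measure. Among 17 measured genes known as AP-1 or EGR targets only 10 passed the filter. Of these 1 was called higher and 0 lower, beside 2.21% and 0.842% of all genes tested. The called gene was Hmox1, heme oxygenase (12.20 against 11.52 to 11.53). By position 4 of the 10 lay above all controls and 2 below, beside 38% and 35.5%. Named after their values were seen, Lif read 8.43 against 7.67 to 7.90 and Ccnd1 11.14 against 11.66 to 11.74. Over the 17 measured the median against GSK-J5 was -0.03.

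**Figure D5:**
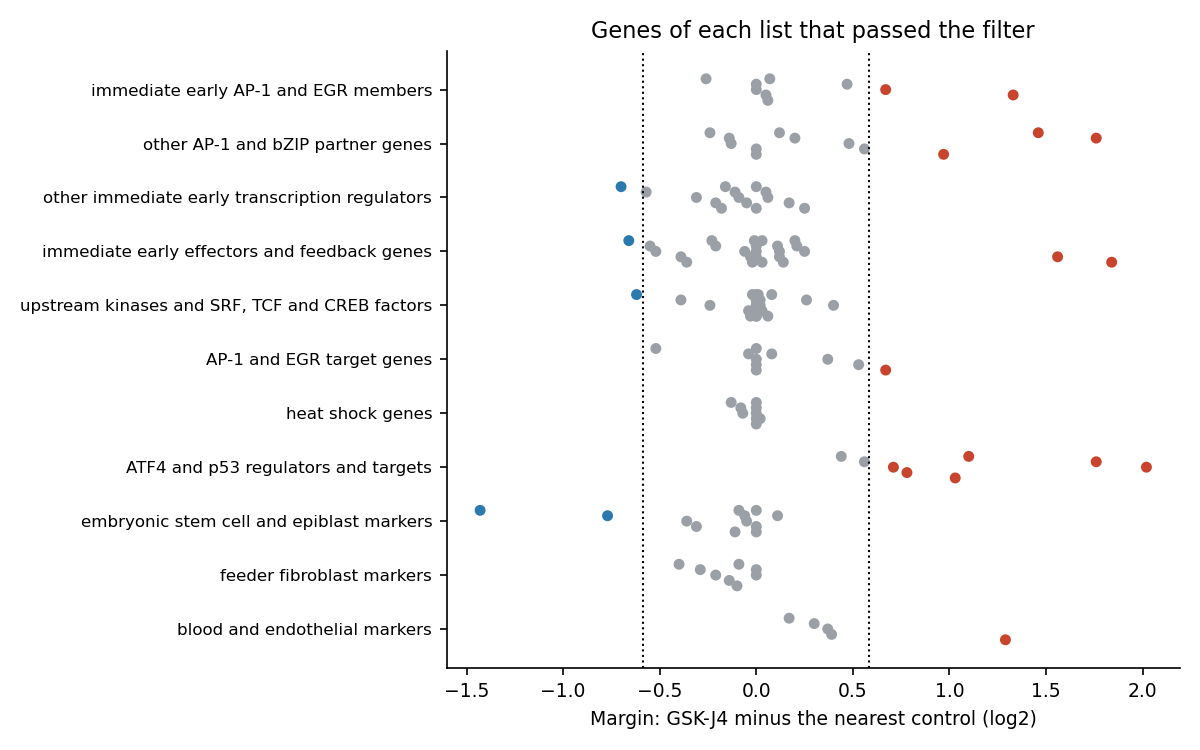
Margins (log2, horizontal axis) of the genes of each list that passed the filter, 1 point per gene, red where called higher, blue where called lower and grey otherwise, with dotted lines at the 1.5-fold rule. Of the 9 immediate early members 2 are called higher and 0 lower, beside 2.21% and 0.842% of all genes tested. Of the 8 ATF4 and p53 genes 6 are called higher and 0 lower. The members and all lists were chosen with earlier results of these data known.

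A short list of regulators and targets of ATF4 and p53, chosen like the others with earlier results of these data known, had 8 measured genes. Of these 6 were called higher and 0 lower, beside 2.21% and 0.842% of all genes tested. The relation of the listed genes to Atf3 was not tested. The called genes included Ddit3, described above, Trib3, a pseudokinase induced by ATF4 (margin 2.02), Chac1, a glutathione-degrading enzyme (1.10), and Cdkn1a, the p53-induced cell cycle inhibitor (1.03). Heat shock genes had 0 of 9 called in either direction, a count near the 2.21% and 0.842% of all genes. Hspa1a read 7.0, 6.75, 6.36 and 6.93 in medium, DMSO, GSK-J5 and GSK-J4, so the controls themselves differed by more than 1.5-fold, and Dnajb1 read 10.35 in GSK-J4 against 10.43 to 10.60.

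Of the 13308 genes, those with predicted or clone-based symbols, such as Gm and Rik names, were left out of a search for similar profiles. Among the rest, the centred values over the 4 arrays closest to Atf3 were those of Abcb1b, a drug efflux pump (root mean square difference 0.026). Next came Laptm5, a lysosomal membrane protein gene of blood cells (0.029), and Apobec1, a cytidine deaminase (0.048). Closest to Fos were Ahnak2 (0.054), Letm2 (0.061) and Anxa8, an annexin (0.062). With 4 arrays, many genes that are high in GSK-J4 come close, so this is a description only.

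The labelled cells were checked against marker genes. All 12 embryonic stem cell and epiblast markers passed the filter, Nanog reading 13.05 to 13.20 and Sox2 12.93 to 13.02 over the 4 arrays. In GSK-J4 0 were called higher and 2 lower, beside 2.21% and 0.842% of all genes tested. By position 8 of the 12 lay below all controls and 1 above, beside 35.5% and 38%. The called markers were Fgf5 (7.23 against 8.66 to 8.83) and Dnmt3b (11.30 against 12.07 to 12.18), both known as genes of primed rather than naive pluripotency. Feeder fibroblast markers, of which 8 of 14 measured passed, had 0 called in either direction, beside 2.21% of all genes higher and 0.842% lower. Over all 14 measured the mean level was 6.64 to 6.69 in the controls and 6.46 in GSK-J4. Thbs1 (7.06 against 7.46 to 7.54) and Dcn (4.78 against 5.29 to 5.59) lay farthest from GSK-J5. Of the 8 that passed, 6 lay below all controls and 0 above, beside 35.5% and 38% of all genes tested. Dcn and Lum were under the filter level on every array. Of the blood and endothelial markers, 5 of 9 measured passed the filter. All 5 lay above the 3 controls in GSK-J4, beside 38% of all genes tested. Of these 1 was called higher (Laptm5, 8.45 against 6.92 to 7.16) and 0 lower, beside 2.21% and 0.842%. Over all 9 measured the mean level was 7.65 in GSK-J4 against 7.32 to 7.39. Of those too dim to be counted, Cdh5 lay below the controls (6.29 against 6.64 to 6.69). Kdr, Gata1 and Ptprc, the pan-leukocyte marker, lay within them, and Ptprc read 4.37 to 4.51 on the 4 arrays. The part of these markers in the Atf3 and Fos values was not tested. In RNA from whole aggregates, a change in the share of cells that express a gene and a change in the RNA per cell cannot be told apart.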

How the data were processed

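Expression was measured on Affymetrix arrays, 1 for each of 4 treatments, from 100 ng of total RNA per the labels' protocols. Per the submitters' processing notes, the authors used Affymetrix Expression Console 1.2.1.20 and RMA, and the deposited values are on a log2 scale. RMA removes background, gives the arrays a common distribution and summarises each probe set, so a change shared by all genes cannot be seen. The log base was inferred from the range of 2.20 to 14.48. Scanner files were not used here, so detection was not examined. Precision is limited by the number of arrays. Array medians were 6.63 to 6.65 over 41345 probe sets.

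Names came from the platform annotation, which can be old: 23521 probe sets have 1 gene symbol, 1814 several, and 16010 are not listed; 0 symbols needed an update against RefSeq GRCm38.p6. The brightest probe set on average stood for a gene. The members and lists were chosen with earlier results of these data known. The text names all members and up to 4 called genes per list and direction (or the 2 farthest from GSK-J5 where none was called). For the 2 members with the largest margins it names the 3 genes with the closest profiles, predicted and clone-based symbols left out. Other genes are marked as named after their values were seen, apart from the marker genes that check the labelled cells. Alternatives were other filters (none, 60th percentile), other folds (1.25, 2), each control left out, the mean of the controls as reference, median centring, repeated quantile normalization, loess (span 0.3), the median over probe sets, the mean over members, and limma 3.58.1, checked on simulated data, with the 3 controls taken as replicates. Calculations used Python 3.11.15 and R 4.3.3.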

Additional observations from a re-analysis of the deposited data

Results flagged for a closer look

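The probe set listed for Ccdc85b and Fosl1 together, which enters no comparison because it carries 2 symbols, had a GSK-J4 value of 8.57, while the controls lay at 6.78 to 7.01. It stands here as a signal above the control level in data outside the measured genes. Its margin was 1.49 to 1.56 over the deposited values and the 3 rescalings. Groups of 1 array allow no search for outlying samples.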

How the results depend on the processing

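The 2 members called higher, Atf3 and Fos, were also the 2 called with no filter, without the EB medium, DMSO or GSK-J5 array, against the mean of the controls, under all 3 rescalings and with the median over probe sets. At the smaller alternative fold Jun joined them (3 members, beside 7.17% of all genes tested), and at 2-fold 1 member was left, Atf3 (0.571%). The shares of all genes called higher beside the 2 members were 1.54% with no filter, 2.4% to 2.56% with a control left out and 3.1% against the mean of the controls. With the filter at the 60th percentile (8.08) the count was 0, beside 2.15% of all genes, because both genes are dimmer than that level and only 6 members reach it. The limma fit took the 3 controls as replicates and had 2 residual degrees of freedom. The log2 differences in that fit were 1.45 for Atf3, 0.79 for Fos, 0.50 for Jun and -0.39 for Egr1. GSK-J4 has 1 array there, so only these sizes are given. Leaving the limma fit aside, the count of members called lower was 0 under all these settings. The shares of all genes called lower were small as well. They were 0.105% at 2-fold, 3.96% at the smaller alternative fold and 0.681% to 1.28% at the other settings. With shares this low and so few members, a count of 0 does not show that the members were spared. The mean over members, which Atf3 pulls up, was 0.26 relative to GSK-J5, 0.37 relative to DMSO and 0.32 relative to medium, where the medians were 0.06, 0.23 and 0.19. Margins ranged over the scalings and probe set rules from 1.27 to 1.33 for Atf3, 0.64 to 0.69 for Fos, 0.38 to 0.47 for Jun and -0.36 to -0.25 for Egr1. No paired analysis was possible because each treatment has 1 array.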
